A study of Mus musculus with 2 samples.

Results

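The genes for matrix metalloproteases (MMPs), ADAMs, ADAMTS proteases and tissue inhibitors of metalloproteases (TIMPs) were followed in cultured mouse cavernous endothelial cells (MCECs) under high glucose. Members were the gene symbols that read Mmp, Adam, Adamts or Timp followed directly by a number, with a letter suffix allowed, and symbols beginning with Adamtsl were not taken. This gave 79 of the 23183 symbols listed, namely 23 Mmp, 33 Adam, 19 Adamts and 4 Timp genes, on 114 of the 33299 transcript rows.

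RNA sequencing was available from 1 library of cells given HBS, the vehicle (HG+HBS), and 1 library of cells given pericyte-derived extracellular vesicle-mimetic nanovesicles (HG+PC-NVs). Both cultures were primary cells grown out of penis tissue as sprouting cells and used at passages 2 to 4, the mice of the study were male C57BL/6J of 8 weeks, and both cultures were kept in 30 mM glucose. PC-NVs, made by extruding cultured mouse cavernous pericytes, were given at 1 µg/mL. The sample labels give 5 days of glucose, whereas the methods give 72 hours of glucose and 24 hours of PC-NVs. How many animals or dishes went into each library is not given in the sources used here, and with 1 library per condition every difference reported here is without a replicate check.

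All of these enzymes but the inhibitors carry a metalloprotease domain that, where it is active, cuts with a bound zinc ion. MMPs are made as inactive proforms and together cut most proteins of the extracellular matrix, ADAMs are membrane-bound and several of them shed the outer part of other membrane proteins, and ADAMTS proteases are secreted and cut proteoglycans, procollagens and other matrix proteins. TIMPs bind the active site of the proteases and block it. In vessels these families are known for remodelling the basement membrane, for sprouting and for inflammation.

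The values are in FPKM, fragments scaled to transcript length and library size, so that levels of different genes can be compared, and the rows of a symbol were summed. Ratios are of HG+PC-NVs over HG+HBS on the log2(FPKM + 1) scale, so that those of low genes are understated, and a gene was called higher or lower when the log2 ratio was at least 1, that is 2-fold, in either direction. Calls were counted where log2(FPKM + 1), averaged over both libraries, was at least 1. The low values step in whole fragments, which places the libraries at about 13400000 fragments (HG+HBS) against 11700000 (HG+PC-NVs), and intervals given with FPKM ratios are exact 95% Clopper-Pearson intervals from the estimated fragments that cover counting error only. Over the 11785 genes past the filter the median log2 ratio was -0.01, and the 5th and 95th percentiles were -0.50 and 0.61.

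The labelled cell type was compared with marker genes. Of 12 endothelial markers 7 were under 1 FPKM in both libraries, among them Tek, Tie1, Kdr, Vwf, Cldn5 and Erg, and the list summed to 36.4 FPKM with HBS and 29.4 FPKM in HG+PC-NVs. Esam (17.4 and 11.7 FPKM), Egfl7 (9.48 and 8.57 FPKM) and Cdh5 (5.05 and 5.73 FPKM) had the highest levels of that list. Pecam1, whose protein the study stained as its endothelial marker in tissue, was under the filter at 1.05 and 0.94 FPKM. All 8 fibroblast markers were above 1 FPKM in both libraries, with a sum of 2054 and 2385 FPKM and a median log2 ratio of -0.26. The higher sum was that of Dcn (623.3 and 1283 FPKM), the only one called, and 6 of the other 7 had lower values with PC-NVs. Of 10 pericyte and smooth muscle markers, which summed to 119.5 and 95.01 FPKM, 8 passed the filter. Of these, 2 were called higher (25%, against 2.38% of all genes) and 2 lower (25%, against 0.798%). The pericyte markers Rgs5 and Kcnj8 were higher (log2 ratios of 1.61 and 1.25) and the smooth muscle markers Acta2 and Tagln lower (-1.67 and -1.13). The others were within 2-fold, with Abcc9 at 0.53, Pdgfrb at -0.18, Notch3 at -0.20 and Cspg4 at -0.70. The part of these cells in the levels of the members was not tested. Most defining markers of endothelium were thus under 1 FPKM in the cells labelled endothelial, and which cells carry the levels given here cannot be read from bulk RNA, in which more cells of a type and more RNA per cell cannot be told apart.

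Most of the Mmp genes called higher in HG+PC-NVs, 5 of 6, lie in a single stretch of the genome. On chromosome 9 of GRCm38 (mm10) 10 members form a cluster from 7272514 to 7699585, a stretch of 427072 bases that runs Mmp13, Mmp12, Mmp1b, Mmp3, Mmp1a, Mmp10, Mmp8, Mmp27, Mmp20 and Mmp7. Of these, 6 passed the filter, and 5 of the 6 were called higher (Mmp13, Mmp1b, Mmp3, Mmp1a and Mmp10), against 2.38% of all genes. Mmp1b passed it through HG+PC-NVs alone, so that a higher value there was fixed by the filter. With quantile normalization between the libraries Mmp3 was short of the call, at a log2 ratio of 0.90. The stretch of 100 bases before the RefSeq start site (GRCm38.p6) is shown for the cluster genes that hold TGACTCA or its reverse complement TGAGTCA there, the letters bound by AP-1 transcription factors and known from MMP promoters. Each sequence reads 5′ to 3′ in the direction of its gene, and the capitals mark these letters.
Mmp13 (chr9:7272414-7272513, + strand): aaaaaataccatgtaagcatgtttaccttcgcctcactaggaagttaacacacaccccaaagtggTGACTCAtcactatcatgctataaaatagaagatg
Mmp12 (chr9:7347274-7347373, + strand): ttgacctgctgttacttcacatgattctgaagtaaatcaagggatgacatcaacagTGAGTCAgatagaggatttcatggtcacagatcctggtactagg
Mmp1b (chr9:7388027-7388126, - strand): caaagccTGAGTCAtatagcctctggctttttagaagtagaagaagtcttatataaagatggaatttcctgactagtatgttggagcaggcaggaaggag
Mmp3 (chr9:7445722-7445821, + strand): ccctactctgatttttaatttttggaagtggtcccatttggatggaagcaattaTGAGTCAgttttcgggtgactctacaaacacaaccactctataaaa
Mmp1a (chr9:7464041-7464140, + strand): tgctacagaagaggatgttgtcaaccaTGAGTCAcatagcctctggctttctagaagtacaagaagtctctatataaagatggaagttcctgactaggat
Mmp10 (chr9:7502242-7502341, + strand): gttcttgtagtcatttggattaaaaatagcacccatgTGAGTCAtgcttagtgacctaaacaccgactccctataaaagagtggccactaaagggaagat
Mmp7 (chr9:7691990-7692089, + strand): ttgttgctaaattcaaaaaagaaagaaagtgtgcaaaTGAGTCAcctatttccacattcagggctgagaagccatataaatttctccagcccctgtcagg

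The letters begin 35 bases before the start site of Mmp13, 46 before that of Mmp3, 63 before that of Mmp10, 73 before that of Mmp1a and 93 before that of Mmp1b. All 5 cluster genes called higher hold them, and so do Mmp7, which was under the filter, and Mmp12, which was within 2-fold, each at 1 of its 2 start sites in the table. In the table of promoters, which runs from 250 bases before to 50 bases after each start site, 5.20% of 32851 windows hold the letters on either strand. The table has 49 of the 79 members with 54 windows, of which 10 windows hold them, 7 of 12 in the cluster and 3 of 42 elsewhere (Adam19, Adam1b and Adam29). Of the members called higher outside the cluster, Timp1 has a window without the letters, and Mmp9 and Adamts7 have no entry in the table. The motif was chosen with the values known, and a match describes the letters and not a bound site.

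Among the 35 members past the filter, 8 were called higher in HG+PC-NVs (22.9%), where 281 of all 11785 genes past it were (2.38%). They were Mmp13, Mmp9, Mmp1b, Adamts7, Mmp10, Mmp1a, Timp1 and Mmp3, and the count includes Mmp1b, which passed the filter through HG+PC-NVs alone. Only Timp3 of the members past the filter was called lower (2.86%), against 94 of all genes (0.798%), and 26 were within 2-fold. The median log2 ratio of the 35 was -0.01 and that of all genes past the filter was also -0.01. Of the 35, 19 had a log2 ratio of less than 0.5 in either direction. The others lay further out on both sides, between -1.40 (Timp3) and 2.11 (Mmp13).

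**Figure D1:**
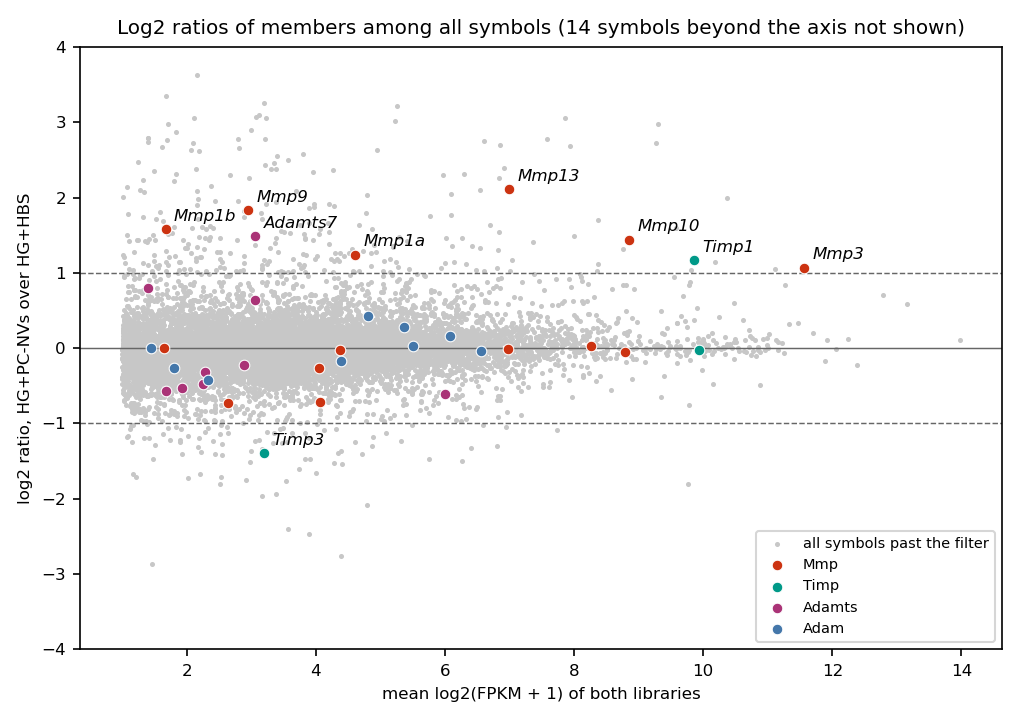
Log2 ratio of HG+PC-NVs over HG+HBS (vertical axis) against the mean log2(FPKM + 1) of both libraries (horizontal axis), with 1 point per gene past the filter, members in colour by family and all other genes in grey. Dashed lines mark 2-fold, and the 8 members above the upper line and Timp3 under the lower one are named.

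The collagenases cut fibrillar collagen, and all 3 that passed the filter were called higher, against 2.38% of all genes. Of these, Mmp1b passed the filter through HG+PC-NVs alone, so that a higher value there was fixed by the filter. Mmp13, the main interstitial collagenase of the mouse, was at 60.1 FPKM with HBS and 262.7 FPKM in HG+PC-NVs, a 4.37-fold ratio of FPKM (interval 4.17 to 4.58) and a log2 ratio of 2.11. On the log2(FPKM + 1) scale it was the only member past the filter to reach 4-fold, while as plain ratios of FPKM Mmp9 and Mmp1b were past it as well. With quantile normalization between the libraries the log2 ratio of Mmp13 was 1.98, just short of 4-fold. The log2 value of Mmp13 was 5.93 in HG+HBS, 8.04 in HG+PC-NVs and 6.99 on average. The study asked for a log2 value above 6. Whether this was meant for each library or for their average is not stated in the sources used here. Both libraries were above a log2 value of 6 for 9 members, of which 0 passed 4-fold on that scale.

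Mmp1a and Mmp1b, the mouse counterparts of the human interstitial collagenase MMP1, are close copies whose reads an aligner can share. Mmp1a was at 14.96 FPKM with HBS and 36.6 FPKM in HG+PC-NVs, a 2.45-fold ratio (2.17 to 2.76). Mmp1b was at 0.837 and 4.48 FPKM, a 5.35-fold ratio (3.10 to 9.79) that rests on about 16.2 and 75.7 fragments, and it passed the filter through HG+PC-NVs alone. It also overlaps Mmp12 by 1261 bases on the opposite strand, and whether the counting used strand is not stated in the sources used here. Mmp8, the collagenase of neutrophils, stayed under the filter at 0.273 and 0.847 FPKM, about 8.84 and 23.96 fragments.

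The stromelysins cut proteoglycans, fibronectin and laminin, and can activate the proforms of other MMPs. Mmp3 had the highest level of all members in both libraries, with 2076 FPKM with HBS and 4364 FPKM in HG+PC-NVs, and moved from rank 18 to rank 7 of all symbols. Its ratio was 2.10-fold (2.08 to 2.12), a log2 ratio of 1.07. Mmp10 was at 279.1 and 758.3 FPKM, a 2.72-fold ratio (2.64 to 2.80). Mmp11, which is activated inside the cell by furin-like convertases and lies outside the cluster, was at 17.1 and 14.1 FPKM. Mmp11 also overlaps Chchd10 by 3367 bases on the opposite strand. The stromelysins of the cluster were thus higher in HG+PC-NVs and Mmp11 was within 2-fold, on the low side. The call of Mmp3 rests on the scaling, since with quantile normalization between the libraries its log2 ratio was 0.90, under the threshold.

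**Figure D2:**
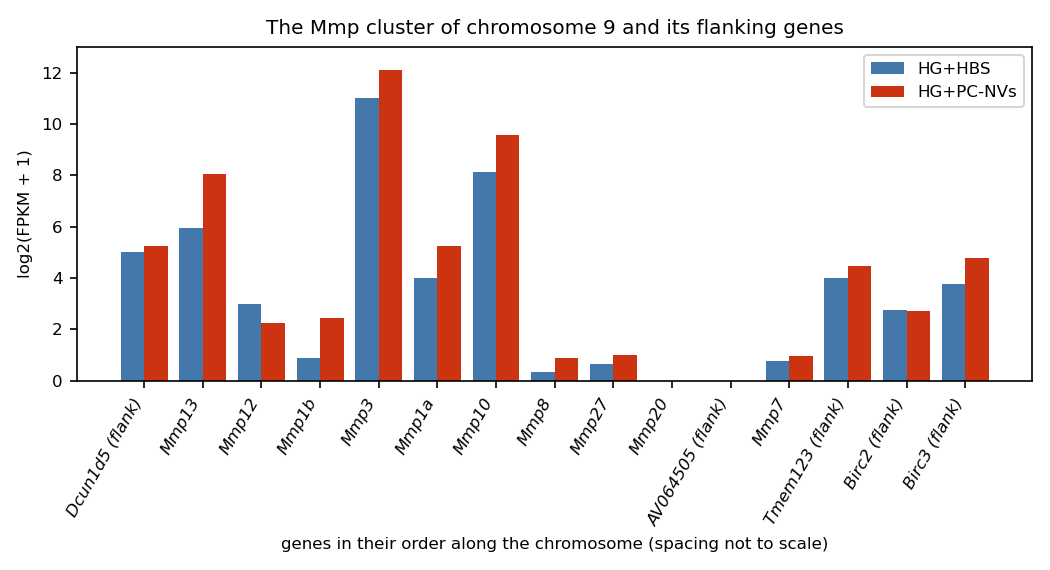
Level as log2(FPKM + 1) (vertical axis) of the genes of the Mmp cluster of chromosome 9 and of its neighbours within 250 kb, in chromosome order with spacing not to scale, with 1 bar for each of the libraries HG+HBS and HG+PC-NVs. Mmp13, Mmp1b, Mmp3, Mmp1a and Mmp10 have a taller bar in HG+PC-NVs, Mmp12 a taller one in HG+HBS, and Mmp20 is at 0 on this scale.

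The rest of the cluster was low. Mmp12, the elastase of macrophages, lies between Mmp13 and Mmp1b, and its level of 6.94 FPKM with HBS and 3.798 FPKM in HG+PC-NVs gave a log2 ratio of -0.73, opposite to that of its neighbours. Mmp27 (0.561 and 0.984 FPKM) and Mmp7, the matrilysin of epithelia (0.702 and 0.941 FPKM), stayed under the filter, and Mmp20, the protease of tooth enamel, gave less than 1 fragment in each library. Of the flanking genes, Dcun1d5, Tmem123 and Birc2 had log2 ratios of 0.25, 0.46 and -0.05, and Birc3, an apoptosis inhibitor induced by NF-kB, had 1.01, from 12.5 to 26.3 FPKM. Outside the cluster, 1 of the 8 Mmp genes past the filter was called higher, against 2.38% of all genes.

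That gene was Mmp9, the gelatinase on chromosome 2 (164940780 to 164955850), which cuts denatured collagen and the type IV collagen of basement membranes. It was at 3.10 FPKM with HBS and 13.5 FPKM in HG+PC-NVs, a 4.37-fold ratio (3.60 to 5.33) from about 131.3 and 500.5 fragments, and the log2 ratio of 1.83 is smaller than this because of the 1 added to each value. Mmp2, the other gelatinase, was far higher in level and differed little, with 449.9 and 435 FPKM and a ratio of 0.967 (0.947 to 0.988). In sum the gelatinases were at 453.0 and 448.6 FPKM, nearly all of it Mmp2.

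Membrane-type MMPs sit at the cell surface, where Mmp14 together with Timp2 activates the proform of Mmp2. Mmp14 was at 303.7 and 309.4 FPKM, a ratio of 1.02 (0.994 to 1.05). Mmp23 was at 19.9 and 19.5 FPKM. Mmp16 had the lowest ratio of this group, from 20.4 to 12.0 FPKM with a log2 ratio of -0.72. None of the 3 membrane-type genes past the filter reached 2-fold, and the other 4 were under it. Mmp15 was above 1 FPKM in HG+HBS alone (1.23 and 0.6999 FPKM). Mmp17 (0.414 and 0.677 FPKM), Mmp24 and Mmp25 were below 1 FPKM in both libraries. Among the other secreted MMPs, Mmp19 was at 125.9 and 125.2 FPKM, a ratio of 0.995 (0.957 to 1.03), and Mmp28 at 2.14 and 2.13 FPKM.

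**Figure D3:**
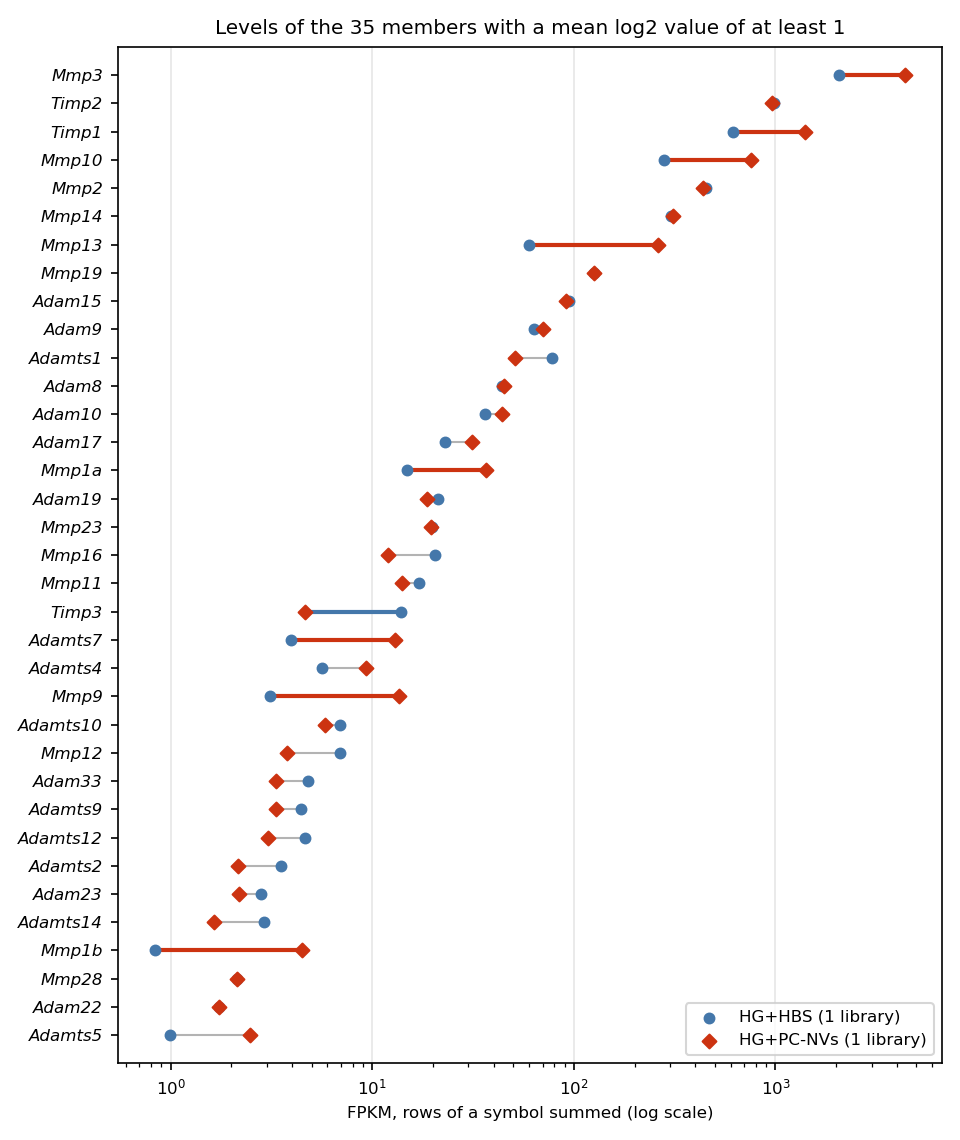
FPKM on a log scale (horizontal axis) of the 35 members past the filter, ordered by mean level, with circles for HG+HBS and diamonds for HG+PC-NVs, each a single library. Thick red lines join the 8 members called higher, a thick blue line Timp3, and grey lines the 26 within 2-fold.

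The TIMP genes went in different directions. Timp1, a soluble inhibitor of most secreted MMPs that also binds the proform of MMP9, was at 618.9 FPKM with HBS and 1398 FPKM in HG+PC-NVs, a 2.26-fold ratio (2.20 to 2.33). Its 3 rows had log2 ratios of 1.18, 0.89 and 1.17. With quantile normalization the log2 ratio of the sum was 0.99, just short of the call. Timp2 was at 985.1 and 964.4 FPKM, a ratio of 0.979 (0.966 to 0.992).

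Timp3 binds to the matrix and is known to block ADAM17 and the aggrecanases besides MMPs. It was at 13.96 FPKM with HBS and 4.65 FPKM in HG+PC-NVs, a ratio of 0.333 (0.289 to 0.383) and a log2 ratio of -1.40, from about 879.9 and 256.2 fragments. Timp4 was under the filter at 1.12 and 0.326 FPKM, 3.43-fold lower (2.10 to 5.84) as a ratio of FPKM. The more abundant Timp1 and Timp2 were thus higher and level, and the less abundant Timp3 and Timp4 had lower values in HG+PC-NVs.

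Each of Timp1 (chromosome X, 20870166 to 20874735), Timp3 (chromosome 10, 86300372 to 86349506) and Timp4 (chromosome 6, 115241892 to 115252205) lies wholly within a synapsin gene on the opposite strand. The host genes were low, with Syn1 at 2.64 and 3.14 FPKM, Syn3 at 0.373 and 0.338 FPKM and Syn2 at 0.149 and 0.304 FPKM. These overlaps are of whole gene spans, and overlap between exons was not examined.

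Summed over their members, the Mmp genes gave 3383 FPKM with HBS and 6365 FPKM in HG+PC-NVs, and the Timp genes 1619 and 2368 FPKM. The quotient of the sums was 2.09 with HBS and 2.69 in HG+PC-NVs. Mmp3 made up 61.4% and 68.6% of the Mmp sum, and without it the quotient was 0.807 and 0.845. The shift between the families is therefore mostly that of Mmp3, and RNA levels do not give the amounts of active enzyme or inhibitor. All 79 members together made up 1.04% of the summed FPKM with HBS and 1.57% with PC-NVs.

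Of the ADAM genes 9 passed the filter and 0 were called in either direction, a count near the shares of 2.38% higher and 0.798% lower over all genes, with a median log2 ratio of 0.00 and a range from -0.42 to 0.43. Adam10, which sheds Notch receptors and cadherins, was at 36.2 FPKM with HBS and 44.1 FPKM in HG+PC-NVs, a 1.22-fold ratio (1.15 to 1.29). Adam17, the enzyme that releases TNF and ligands of the EGF receptor, was at 22.9 and 31.3 FPKM, a 1.37-fold ratio (1.27 to 1.47). The latter was the largest ratio of the family, and both were short of 2-fold. Adam17 is listed on 5 rows, and nearly all of its level was on a single row, at 21.95 and 30.4 FPKM.

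Adam15 had the highest level of the ADAM genes, with 94.3 and 91.7 FPKM and a ratio of 0.973 (0.927 to 1.02), followed by Adam9 with 63.1 and 70.7 FPKM and a ratio of 1.12 (1.07 to 1.17), and by Adam8 with 44.1 and 44.95 FPKM. Adam9 is listed on 2 rows that went apart, from 31.4 to 49.0 FPKM on the first and from 31.7 to 21.7 FPKM on the second. The sum of its rows hides this, although how the authors' software split reads between transcripts of a gene could not be checked here. Rows of other members also went apart, among them Mmp28 (log2 ratios of -0.31 and 0.39) and Adamts10 (-0.53, -0.50 and 1.34). Adam19 was at 21.2 and 18.7 FPKM and Adam33 at 4.81 and 3.35 FPKM. Adam23 (2.82 and 2.18 FPKM) and Adam22 (1.73 and 1.73 FPKM), which lack protease activity and are known from the nervous system, were low in both.

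**Figure D4:**
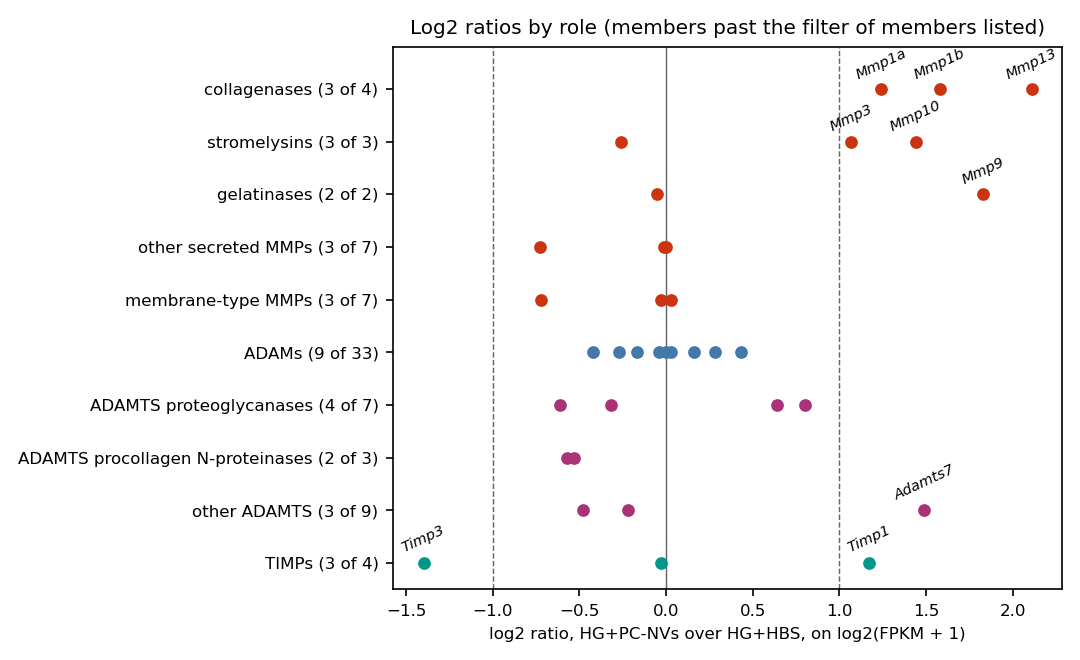
Log2 ratio of HG+PC-NVs over HG+HBS (horizontal axis) of each member past the filter, 1 point per gene, grouped by role (vertical axis, with the number past the filter of the number listed). Dashed lines mark 2-fold. The 3 collagenases lie right of the upper line, the ADAM genes lie between -0.42 and 0.43, and the TIMP genes lie on both sides.

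Of the ADAMTS genes 9 passed the filter, with a median log2 ratio of -0.32, and 1 was called higher (11.1%, against 2.38% of all genes). This was Adamts7 on chromosome 9 (90163069 to 90208071, apart from the Mmp cluster), which cuts cartilage oligomeric matrix protein and thrombospondin. It was at 3.97 FPKM with HBS and 12.9 FPKM in HG+PC-NVs, a 3.26-fold ratio (2.84 to 3.74). It overlaps Tbc1d2b by 6045 bases on the opposite strand, a gene at 28.3 and 30.9 FPKM.

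The proteoglycanases of this family were split. The aggrecanases Adamts4 (5.62 and 9.34 FPKM) and Adamts5 (0.992 and 2.47 FPKM) had log2 ratios of 0.64 and 0.80. Adamts5 had a log2 value of 0.99 in HG+HBS and passed the filter through HG+PC-NVs alone. A higher value in HG+PC-NVs was thus fixed by the filter for this gene. As a ratio of FPKM without the added 1, Adamts5 was 2.50-fold higher (2.04 to 3.06), and with a pseudocount of 0.1 it was past 2-fold on the log2 scale as well. Adamts1, which cuts versican and was the most abundant ADAMTS gene, was at 77.9 and 50.9 FPKM, 1.53-fold lower (1.46 to 1.60), and Adamts9 was at 4.42 and 3.33 FPKM. Adamts15 was above 1 FPKM in HG+HBS alone, at 1.52 FPKM against 0.0675 FPKM in HG+PC-NVs, about 120.1 and 4.66 fragments, and was under the filter.

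The procollagen N-proteinases, which trim the amino-terminal end of fibrillar procollagens, had log2 ratios of -0.53 for Adamts2 (3.54 and 2.15 FPKM) and -0.57 for Adamts14 (2.92 and 1.64 FPKM), and Adamts3 was under the filter at 0.701 and 0.839 FPKM. Adamts12 was at 4.63 and 3.03 FPKM and Adamts10, which acts on microfibrils, at 6.95 and 5.82 FPKM. Apart from Adamts7, Adamts4 and Adamts5, all 6 ADAMTS genes past the filter had lower values in HG+PC-NVs, each by less than 2-fold.

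The other 44 members were under the filter. In 24 of them both libraries gave fewer than 3 estimated fragments, 17 Adam, 4 Adamts and 3 Mmp genes, among them Adam2, Adam3, Adam18 and Adam29, which are known from sperm and testis. At this depth such levels cannot be told from 0. The remaining 20 gave at least 3 estimated fragments in 1 library or both, with Mmp15 the highest by mean log2 value.

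Genes that act on these proteases were read from a list. Like the members and the other lists, it was chosen with earlier results of these data known. Of 30 regulators 29 are listed and 20 passed the filter, with 2 higher (10%, against 2.38% of all genes), 1 lower (5%, against 0.798%) and a median log2 ratio of 0.08. Pcsk5, a convertase that cuts proproteins, was at 9.53 FPKM with HBS and 22.9 FPKM in HG+PC-NVs, and Rhbdf2, which carries ADAM17 to the cell surface, at 6.50 and 14.1 FPKM. Plat, the tissue plasminogen activator, was lower, at 32.8 and 12.0 FPKM. The other 17 were within 2-fold.

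Of 25 ligands and receptors that are shed from the cell surface 21 passed the filter, with 3 higher (14.3%, against 2.38% of all genes), 0 lower and a median log2 ratio of 0.15. They were Ereg, a ligand of the EGF receptor, with 34.1 FPKM with HBS and 174.2 FPKM in HG+PC-NVs, Cxcl16, a chemokine anchored in the membrane, with 11.7 and 29.5 FPKM, and Tnf with 0.245 and 2.52 FPKM, which passed the filter through HG+PC-NVs alone. The levels of these genes say nothing of how much of the protein was shed.

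Markers of leukocytes, cells that also make Mmp8, Mmp9 and Mmp12, did not move as one. Of 9 macrophage markers all passed the filter, with 3 higher (33.3%, against 2.38% of all genes), 0 lower and a median log2 ratio of 0.13. The list summed to 351.7 FPKM with HBS and 594.1 FPKM in HG+PC-NVs, a difference that was mostly that of Cd14 (36.7 and 251.8 FPKM). Adgre1 and Fcer1g were the others called higher, with log2 ratios of 2.37 and 1.09. Lyz2 (211.8 and 192.9 FPKM), Cd68 (36.2 and 26.4 FPKM), Csf1r (8.39 and 6.20 FPKM), Tyrobp (29.4 and 29.5 FPKM) and Ptprc, the marker shared by leukocytes (1.44 and 1.67 FPKM), were within 2-fold. Of 8 neutrophil markers 7 are listed and 2 passed the filter, S100a9 with 0.00323 and 5.96 FPKM and Camp with 0.871 and 41.4 FPKM. Both passed it through HG+PC-NVs alone, so that a higher value there was fixed by the filter. Csf3r (0.141 and 0.235 FPKM) and Cxcr2 (0.359 and 0.391 FPKM) were below 1 FPKM, Mpo was at 0 in both and Elane at 3.75e-05 and 0 FPKM. The part of leukocytes in the levels of the members was not tested.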

How the data were processed

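Total RNA of MCECs was made into poly(A) libraries with a stranded kit and sequenced as 1 library per condition. The authors removed adapters and reads under Q20, mapped the reads with TopHat to mm10 (per the labels), computed FPKM with Cufflinks and normalized with edgeR in R, described as quantile normalization. The deposited columns differ in their sums (521665.8 and 580716.7 FPKM), so they do not share 1 distribution, and which step of that normalization they carry is not given in the sources used here. The versions and the annotation are not given in the sources used here. The deposited values are log2(normalized FPKM + 1) per transcript row, as read from their range. They were converted back, summed per symbol and compared on the log2(FPKM + 1) scale with no further normalization.

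Members and gene lists were chosen with earlier results of these data known. Called means 2-fold (log2 ratio of 1) at a mean log2 value of at least 1. Members past the filter were eligible for naming. Full values were given for those past 2-fold, the TIMPs, Mmp2, Mmp9, Mmp14, Adam10, Adam17 and the 10 highest. Members under the filter with less than 1 FPKM in both libraries were named after their values were seen.

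What 1 fragment is worth was taken as the commonest low product of FPKM and length in kb among 2189 single-transcript genes of GENCODE M21 longer than 1500 nt. It was 0.0749 with HBS and 0.0857 with PC-NVs, and 89.5% and 87.6% of the values near 1 to 3 fragments lay within 0.2 of a whole number. Fragments per gene used the longest coding transcript and are approximate. A floor of 3 fragments was used. PCR reads without molecular identifiers are not independent molecules. Positions are from GENCODE M21 and promoters from RefSeq (GRCm38.p6). The calculations were tested on simulated data. The software was scipy 1.17.1, numpy 2.4.6, matplotlib 3.10.9 and pandas 2.3.3 under Python 3.11.15. Alternatives covered normalization, pseudocount, filter, fold and the handling of rows.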

Additional observations from a re-analysis of the deposited data

How the results depend on the processing

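The number of members called higher was 8, and stayed at 6 to 9 under each other normalization, pseudocount, filter and handling of rows. It was 9 with a pseudocount of 0.1, where Adamts5 was added, which passed the filter through HG+PC-NVs alone. With quantile normalization it was 6, without Mmp3 (0.90) and Timp1 (0.99), and the log2 ratios of Timp2, Mmp2 and Mmp14 were then -0.22, -0.30 and -0.20. With the filter raised to a mean of 3 it was 6, since Mmp9 and Mmp1b are below that level. At 4-fold 1 was higher (Mmp13) and 0 were lower, against 0.636% and 0.0594% of all genes. With quantile normalization the log2 ratio of Mmp13 was 1.98, just short of 4-fold. At 1.5-fold 10 were higher and 4 lower (Adamts1, Mmp12, Mmp16 and Timp3), against 5.33% and 3.57% of all genes. Without a filter 2 were lower, Timp3 and Adamts15. The median log2 ratio of the members ran from -0.07 to 0.03. Of 90 values of 18 single members under alternatives, 76 stayed within the counting error, 14 moved past it and 0 of the called ones changed sign. No paired analysis was possible because each condition has a single library, which also means that no replicate could be left out. Depth limits genes of few fragments, such as Mmp1b and Mmp8.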

Other observations

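Enzymes that cut the matrix but belong to other families were read from a list of 25 genes written after the values of the members had been seen. Of the 18 past the filter 0 were called in either direction, a count near the shares of 2.38% higher and 0.798% lower over all genes. The median log2 ratio was -0.07, with a range from -0.71 to 0.88. Ctsl, the gene of cathepsin L, had the highest ratio, with 655.5 FPKM with HBS and 1206 FPKM in HG+PC-NVs, and Fap, a serine protease of activated fibroblasts, the lowest, with 62.2 and 37.8 FPKM. Ctsd (1494 and 1348 FPKM) and Ctsb (614.9 and 628.4 FPKM) were at levels like those of the more abundant Timp genes. Bmp1, which trims the carboxy-terminal end of procollagens, was at 69.2 and 65.2 FPKM. The list summed to 3545 and 3934 FPKM.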
